A study of Mus musculus with 24 samples.

Results

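Protein phosphatase 2A (PP2A) is described here through 10 of its subunit genes in single preimplantation mouse embryos. They are the catalytic subunits Ppp2ca and Ppp2cb, the scaffold subunits Ppp2r1a and Ppp2r1b, the B55 regulatory subunits Ppp2r2a and Ppp2r2d, and the B56 regulatory subunits Ppp2r5a, Ppp2r5c, Ppp2r5d and Ppp2r5e. The genes were chosen by symbol with earlier results of these data known: the read counts of split against control morulae had shown a lower level of Ppp2ca. All 10 were found among the 37229 gene rows of the count table, and all 10 passed the filter on low counts, which kept 15875 genes.

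RNA was measured by Smart-seq2, a full-length method for very small inputs, in 24 embryos of the ICR strain obtained by in vitro fertilization. Split embryos were grown from single blastomeres: late 2-cell embryos were placed in G-PGD biopsy medium, their blastomeres were pulled apart by micromanipulation, and each blastomere was cultured singly in modified sodium hyaluronate gel. There were 6 split morulae and 6 split blastocysts, each set made of 3 sister pairs, and intact controls at the 8-cell (4 embryos), morula (5 embryos) and blastocyst (3 embryos) stages. No embryo carried a named allele, and all shared the ICR background, in vitro fertilization and low-oxygen culture. The labels give matched culture conditions for the intact controls but do not say whether these were also held in biopsy medium and gel, so separation and its handling steps cannot be told apart. Sisters come from 1 zygote, so their counts were summed and a pair counted as 1 replicate, which gave 3 replicates for each split group. The labels do not say whether the control embryos came from separate litters or fertilizations. The p-values therefore measure only the spread between these replicates, estimated over all 5 groups together.

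PP2A is a serine/threonine phosphatase that works as a trimer. A catalytic C subunit binds a horseshoe-shaped A scaffold, and 1 of several B subunits completes the trimer and chooses its substrates. With B55 subunits it reverses phosphorylation by cyclin-dependent kinases at the end of mitosis, and with B56 subunits it acts at kinetochores and protects centromeric cohesion. In the mouse, loss of Ppp2ca is lethal to the early embryo although Ppp2cb encodes a nearly identical protein.

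The promoters of 3 members are shown because their transcripts carry the split embryo results below: Ppp2ca and Ppp2r2d were lower in split embryos, and Ppp2r1a was at higher values in split blastocysts. Each run is the 250 bases before an annotated transcript start in RefSeq on GRCm38.p6, written 5′ to 3′ along the transcribed strand. The windows are chr11:52098574-52098823 (plus strand) for Ppp2ca, chr7:138846109-138846358 (plus strand) for Ppp2r2d and chr17:20945204-20945453 (plus strand) for Ppp2r1a. Capitals mark the palindrome TGACGTCA, known as the cyclic AMP response element, and CCAAT on either strand.
Ppp2ca: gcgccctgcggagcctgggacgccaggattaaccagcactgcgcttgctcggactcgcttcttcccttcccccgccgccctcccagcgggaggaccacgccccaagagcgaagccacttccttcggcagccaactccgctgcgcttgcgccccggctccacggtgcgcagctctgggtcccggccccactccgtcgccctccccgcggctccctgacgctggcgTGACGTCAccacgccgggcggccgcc
Ppp2r2d: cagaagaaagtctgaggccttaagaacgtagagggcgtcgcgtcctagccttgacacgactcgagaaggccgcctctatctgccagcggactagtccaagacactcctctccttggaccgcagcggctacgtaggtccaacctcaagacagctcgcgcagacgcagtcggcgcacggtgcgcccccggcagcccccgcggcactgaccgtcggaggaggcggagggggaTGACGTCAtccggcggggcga
Ppp2r1a: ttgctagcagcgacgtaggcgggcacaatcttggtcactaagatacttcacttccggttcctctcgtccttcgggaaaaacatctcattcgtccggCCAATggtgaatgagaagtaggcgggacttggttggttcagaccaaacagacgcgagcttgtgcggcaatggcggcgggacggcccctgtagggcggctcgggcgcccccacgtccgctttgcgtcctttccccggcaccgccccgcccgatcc
RefSeq promoter windows were matched by symbol for 7 members. TGACGTCA, which reads the same on both strands, was present in those of Ppp2ca and Ppp2r2d and in none of the other 5. In Ppp2ca 18 bases lie between the motif and the transcript start, and in Ppp2r2d 13 bases, or 40 bases to a second annotated start of that gene. Of 32851 promoter windows of the same length, 1.55% held TGACGTCA. CCAAT, searched on both strands, was in 33.8% of windows and, of the 3 shown, in that of Ppp2r1a. GGGCGG, searched likewise, was in 32.7% of windows and, of the 3 shown, in those of Ppp2ca and Ppp2r1a, and TATAAA was in 12.4% of windows and in none of the members'. The motifs were chosen after the Ppp2ca promoter had been seen, and a match is a run of letters, not a shown binding site.

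Library totals ran over 26.3 to 38.5 M assigned reads in 8-cell embryos, 14.1 to 18.9 M in split morulae, 13.9 to 19.0 M in control morulae, 13.4 to 25.2 M in split blastocysts and 11.3 to 12.7 M in control blastocysts. Split embryos differed from controls beyond these genes. Between 10372 and 12124 genes had a count in split morulae, against 12669 to 13385 in control morulae, and mitochondrial transcripts took 1.81% to 3.19% of counts, against 2.70% to 5.06% in control morulae. In split blastocysts 12530 to 14366 genes had a count, against 14109 to 15584 in control blastocysts, and mitochondrial transcripts took 0.841% to 2.34% of counts, against 3.47% to 4.85% in control blastocysts. The part of these differences in the results below was not tested. All 9 markers of preimplantation embryos were counted in every group, and summed markers of cumulus cells and sperm stayed at or under 13.7 and 5.80 CPM (counts scaled to a common library total), with Amh, Fshr and Tnp1 at 0 in every group. The 5 blood markers summed to at most 37.0 CPM, except for a highest sum of 103 CPM in split morulae, where the 4 markers Ptprc, Hbb-bt, Hbb-bs and Lyz2 were at 0.

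Levels of different genes were compared as TPM, in which counts are divided by transcript length before they are scaled to a common total. Both catalytic genes were abundant at every stage in control embryos, while the scaffold genes and the B56 genes started low. Summed over Ppp2ca and Ppp2cb, control embryos had medians of 179 TPM at the 8-cell stage, 156 TPM at the morula stage and 204 TPM at the blastocyst stage. The summed scaffold level in the same embryos had medians of 23.1, 51.9 and 89.0 TPM. The B56 sum had medians of 31.2, 110 and 142 TPM along these stages, against 131, 109 and 110 TPM for the B55 sum. These sums hold only the listed members. They leave out Ppp2r2b, Ppp2r2c and Ppp2r5b, whose highest group means were 16.4, 18.9 and 9.62 CPM. Among the listed B56 genes, Ppp2r5c took a median of 30.9% of the sum in 8-cell embryos, 85.3% in control morulae and 50.6% in control blastocysts.

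**Figure D1:**
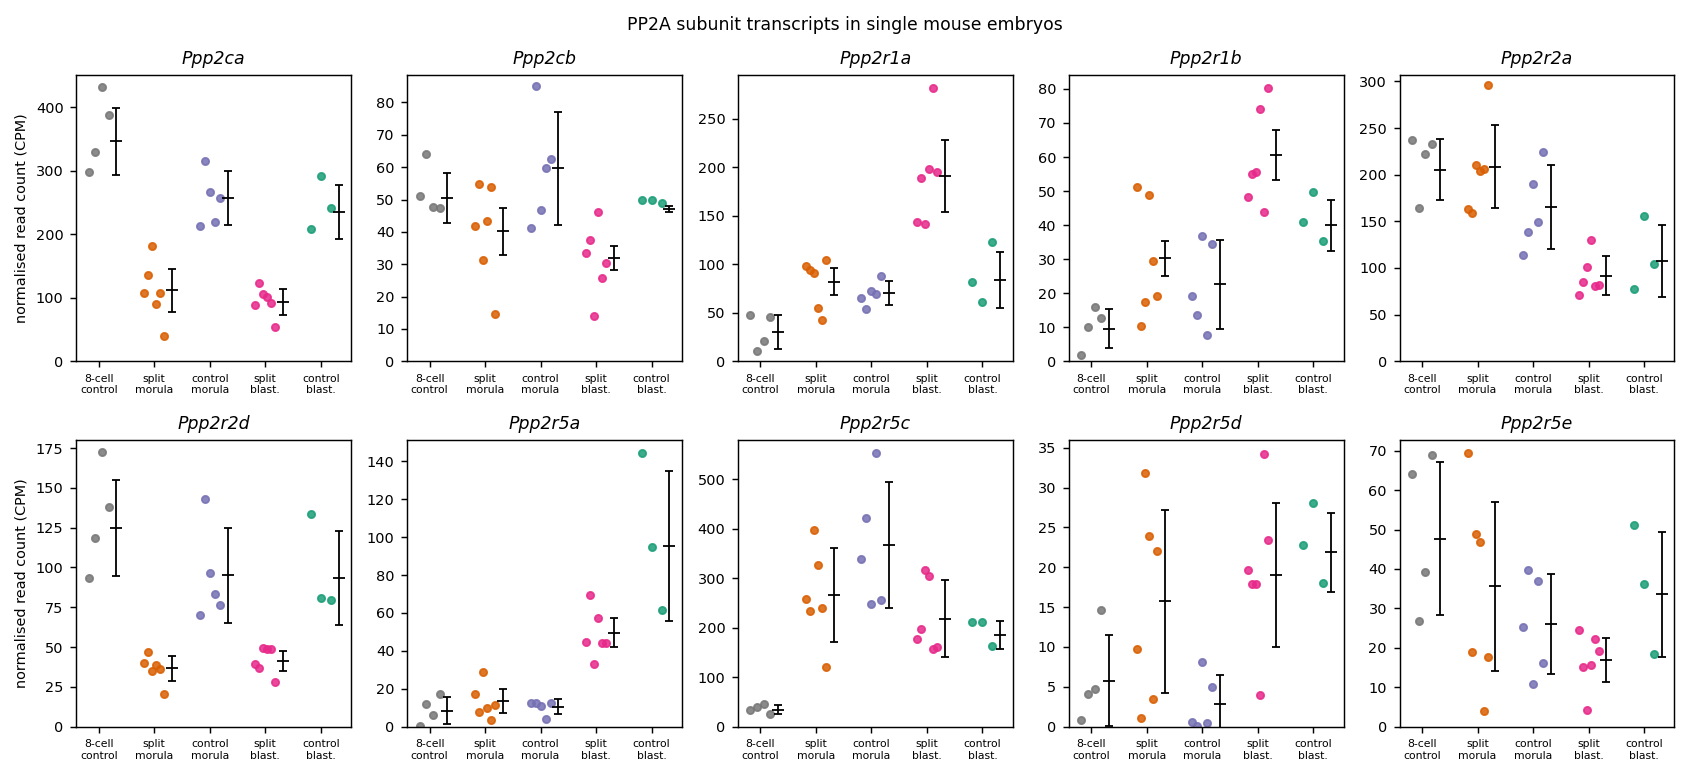
Normalised read count (CPM, vertical axis, linear, 1 panel per gene) of the 10 PP2A subunits in each of the 24 embryos (points), by group along the horizontal axis; black marks give the mean ± SD over replicates with sisters summed, and bars that would pass below 0 stop at 0. For Ppp2ca and Ppp2r2d every split embryo lies under every control embryo, and Ppp2r5c is low in all 4 8-cell embryos.

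From the 8-cell stage to the morula, Ppp2r1a and Ppp2r5c rose and no member fell, so 2 of 10 passed the test (edgeR's quasi-likelihood test, adjusted p under 0.05 over all genes), where 24.9% of all genes tested did so, 14.3% in the higher and 10.7% in the lower direction. With no overlap of replicates there were likewise Ppp2r1a and Ppp2r5c, against 21.8% of all genes. From morula to blastocyst Ppp2r5a rose and Ppp2r5c fell, again 2 of 10, where 10.6% of all genes did so, 3.12% higher and 7.46% lower; these and Ppp2r5d did not overlap, against 24.6% of all genes. Between split and control blastocysts Ppp2ca and Ppp2r2d fell and no member rose, so 2 of 10 passed, against 4.74% of all genes in either direction, 3.42% in the higher and 1.32% in the lower. Ppp2ca was known to be lower in split morulae when the genes were listed, so this count is not independent of that choice. Between split blastocysts and split morulae Ppp2r2a fell, 1 of 10, against 4.17% of all genes, 1.22% higher and 2.95% lower. The share of all called genes that were higher depended on the scale: limma on log2(TPM + 1) gave 76.2% for control blastocysts against morulae, 45.5% for split against control blastocysts and 62.2% for split blastocysts against split morulae, where edgeR gave 29.5%, 72.2% and 29.3%. On that scale Ppp2r1b, Ppp2r5a and Ppp2r5d rose and no member fell in control blastocysts against morulae. The comparisons share embryos: control morulae stand in both developmental steps and in the split morula comparison, and control blastocysts stand in 2 comparisons.

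In split morulae against control morulae, Ppp2ca and Ppp2r2d were at lower values with no overlap of replicates, and the other 8 members overlapped. Since this contrast was known when the genes were listed, its values are a description with no test; 0.126% of all genes passed the threshold in it, 0.0693% higher and 0.0567% lower, and 7.25% had replicates that did not overlap. The median log2 difference of the 10 members was 0.28, against 0.00 over all genes. In split against control blastocysts the median of the members was -0.39, against 0.00 over all genes.

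**Figure D2:**
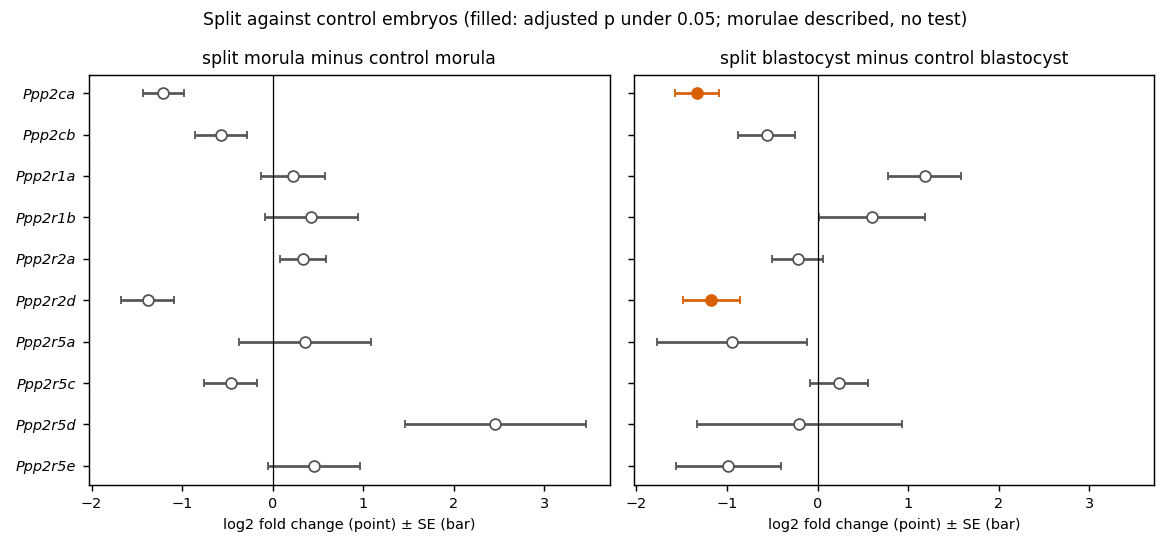
Log2 fold change of each PP2A subunit (horizontal axis, points; bars are ± SE from edgeR) in split minus control morulae (left) and split minus control blastocysts (right), genes down the vertical axis; filled points in the right panel passed an adjusted p of 0.05, and the left panel carries no test. Ppp2ca is at -1.21 and -1.33 and Ppp2r2d at -1.38 and -1.17, while Ppp2r5d has the widest bars.

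Ppp2ca encodes the main catalytic subunit. Its level in control embryos was 298, 330, 432 and 387 CPM at the 8-cell stage. The 6 split morulae had 39.7 CPM at the lowest, 108 CPM at the median and 181 CPM at the highest, against 214, 316, 267, 220 and 258 CPM in the 5 control morulae. The 6 split blastocysts had 53.5, 96.5 and 124 CPM at the lowest, median and highest, against 209, 292 and 241 CPM in the 3 control blastocysts. All 12 split embryos were below all 12 control embryos. Since each library is a whole embryo and CPM are shares of a library, fewer cells of a kind and less of the transcript per cell cannot be told apart.

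Over replicates, Ppp2ca averaged 93.6 ± 20.6 CPM in split blastocysts and 235 ± 41.9 CPM in control blastocysts (SD, n = 3 each). The log2 fold change was -1.33 ± 0.25 (SE), a 2.52-fold lower level in split blastocysts, with an adjusted p of 0.00217 in edgeR. It passed the threshold in each of the 18 alternatives run, with log2 values between -1.57 and -1.16 and adjusted p between 4.66e-06 and 0.0208. In morulae the averages were 111 ± 33.6 CPM in split embryos (n = 3) and 258 ± 42.8 CPM in controls (n = 5), a log2 difference of -1.21 ± 0.23 (SE). Leaving out the third sister pair, whose second embryo held the 39.7 CPM, moved this to -0.98. The difference between the 2 split effects holds the split morula values, so for the members it is a description with no test. In it 1.64% of all genes passed the threshold. For Ppp2ca the difference was -0.12 ± 0.33 (SE) on the log2 scale, smaller than its error.

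Along control development Ppp2ca did not pass the test. Its log2 fold change was -0.43 ± 0.20 (SE) in morulae against 8-cell embryos (edgeR adjusted p = 0.115) and -0.13 ± 0.22 in blastocysts against morulae (edgeR adjusted p = 0.791). In the order of group means, split blastocysts (93.6 CPM) and split morulae (111 CPM) overlapped, the step up to control blastocysts (235 CPM) had no overlap, and control blastocysts, control morulae (258 CPM) and 8-cell embryos (346 CPM) overlapped in turn.

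Ppp2cb encodes the second catalytic subunit. Split morulae had 14.7, 42.6 and 54.8 CPM at the lowest, median and highest, against 41.2, 85.1, 46.8, 59.6 and 62.5 CPM in control morulae. Split blastocysts had 13.9, 31.9 and 46.2 CPM, against 49.8, 49.9 and 49.0 CPM in control blastocysts. The morula groups overlapped and the blastocyst groups did not. In split against control blastocysts, 5 of 10 members and 31% of all genes had replicates that did not overlap. The log2 fold change in split against control blastocysts was -0.56 ± 0.31 (SE) and missed the threshold (edgeR adjusted p = 0.418); it passed on the TPM scale, where limma on log2(TPM + 1) gave -0.84 with an adjusted p of 0.0419. In no comparison did Ppp2cb pass the edgeR test.

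Per length, Ppp2ca was the lower of the 2 catalytic transcripts in most split embryos, while control embryos lay on both sides of an even share. This share rests on transcript lengths from an annotation that is not given. In CPM, which are not divided by length, Ppp2ca was above Ppp2cb in every embryo. Ppp2ca made up 50.3% to 64.0% of the catalytic sum in 8-cell embryos. The share was 28.2% to 53.3% with a median of 33.0% in split morulae, against 41.9% to 52.8% with a median of 44.8% in control morulae. It was 25.7% to 60.0% with a median of 36.9% in split blastocysts, against 45.1% to 53.5% with a median of 49.1% in control blastocysts, so the groups overlapped at both stages. The catalytic sum itself was 61.8 to 120 TPM in split blastocysts, against 182 to 206 TPM in control blastocysts.

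Ppp2r1a encodes the predominant scaffold subunit. It had 65.2, 53.5, 72.1, 69.5 and 87.9 CPM in control morulae, against 47.9, 10.9, 20.9 and 45.4 CPM in 8-cell embryos, with no overlap. It rose in morulae, with a log2 fold change of 1.23 ± 0.34 (SE) and an adjusted p of 0.0107 in edgeR, and passed in all 21 alternatives run, with values from 0.94 to 1.52. Split morulae had 42.5, 92.7 and 104 CPM at the lowest, median and highest, overlapping control morulae, with a log2 difference of 0.22 ± 0.35.

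Split blastocysts had 141, 192 and 282 CPM of Ppp2r1a at the lowest, median and highest, against 81.2, 61.4 and 123 CPM in control blastocysts. Every split blastocyst was above every control blastocyst. With sisters summed the replicates did not overlap, as for 31% of all genes in this comparison. The averages were 191 ± 36.7 CPM in split and 84.1 ± 29.1 CPM in control blastocysts (SD, n = 3 each), a log2 fold change of 1.18 ± 0.40 (SE) that missed the threshold (edgeR adjusted p = 0.110). It passed in 2 of 18 alternatives, DESeq2 at 1.14 with an adjusted p of 0.0354 and edgeR with only these 2 groups at 1.12 with an adjusted p of 0.0171. Over all 18, log2 values ran from 0.96 to 1.49 and adjusted p from 0.0171 to 0.392. Against split morulae, split blastocysts also held higher values without overlap, with a log2 fold change of 1.22 ± 0.40 (edgeR adjusted p = 0.0991), where 4 of 10 members and 27.4% of all genes had replicates that did not overlap.

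Ppp2r1b, the minor scaffold, had 1.87 to 15.9 CPM in 8-cell embryos, 10.5 to 51.1 CPM in split morulae, 7.62 to 36.8 CPM in control morulae, 43.9 to 80.3 CPM in split blastocysts and 35.2 to 49.8 CPM in control blastocysts. It passed in no comparison in edgeR. The largest of its log2 fold changes was 1.23 ± 0.49 (SE) in morulae against 8-cell embryos (edgeR adjusted p = 0.071). With sisters summed, split blastocysts did not overlap control blastocysts (0.60 ± 0.58, edgeR adjusted p = 0.777) or split morulae (1.00 ± 0.59, edgeR adjusted p = 0.354). Of all genes, 31% and 27.4% had replicates that did not overlap in these comparisons.

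By median, the scaffold and catalytic sums gave opposite orders of split and control blastocysts. The scaffold sum was 122 to 242 TPM in split blastocysts, against 72.5 to 129 TPM in control blastocysts, so the groups overlapped. It exceeded the catalytic sum in all 6 split blastocysts and in none of the 3 controls. Scaffold over catalytic TPM was 1.43 to 3.01 with a median of 1.83 in split blastocysts, against 0.352, 0.488 and 0.635 in the control blastocysts. In split morulae the ratio was 0.333 to 2.19 with a median of 0.608, against 0.178 to 0.404 in control morulae, and the groups overlapped. The 2.19 belonged to the second embryo of the third pair, which had the lowest Ppp2ca and Ppp2cb and the highest Ppp2r1a of the split morulae. In 8-cell embryos the ratio was 0.0542 to 0.192. These ratios were computed from genes whose values had been seen and carry no test. Like the sums, they rest on transcript lengths from an annotation that is not given.

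**Figure D3:**
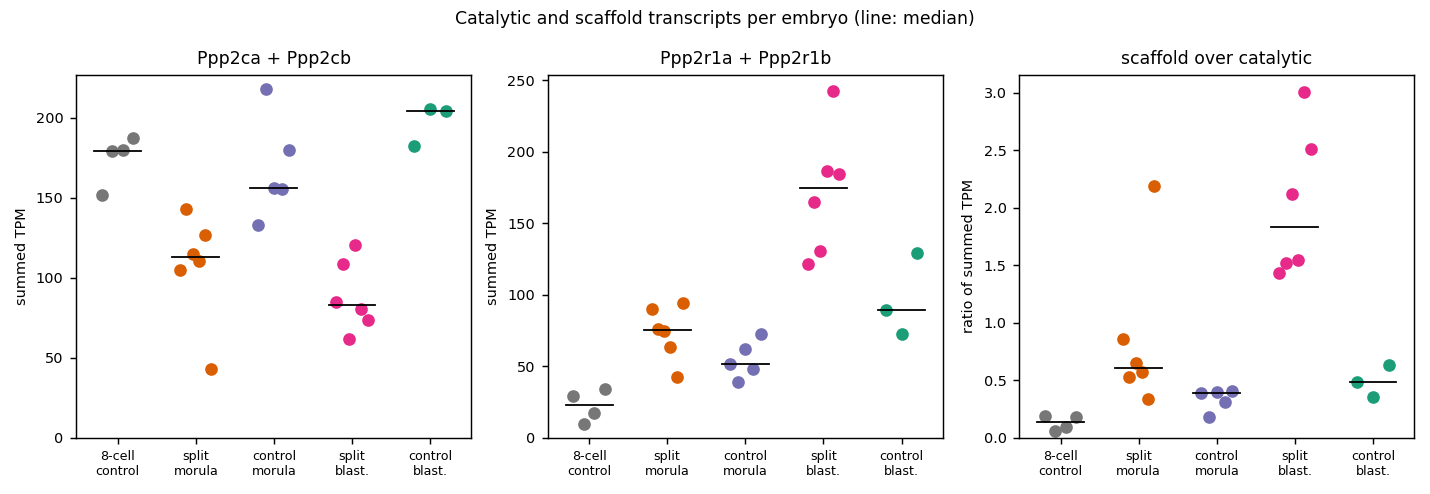
Summed TPM of the catalytic genes Ppp2ca and Ppp2cb (left), of the scaffold genes Ppp2r1a and Ppp2r1b (middle), and their ratio (right) in each embryo (points), by group along the horizontal axis, with the group median as a line; all vertical axes are linear and start at 0. The ratio is 1.43 or more in all 6 split blastocysts and 0.635 or less in the 3 control blastocysts.

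Ppp2r2d encodes B55δ, the B55 form known from Xenopus egg extracts to restrain entry into mitosis. It had 93.2, 119, 173 and 138 CPM in 8-cell embryos. Split morulae had 20.4, 37.6 and 46.8 CPM at the lowest, median and highest, against 70.3, 143, 96.6, 83.5 and 76.5 CPM in control morulae. Split blastocysts had 27.9, 44.0 and 49.7 CPM, against 134, 80.9 and 79.6 CPM in control blastocysts. Neither stage showed any overlap.

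In blastocysts the averages of Ppp2r2d were 41.4 ± 6.41 CPM in split and 93.3 ± 29.5 CPM in control embryos (SD, n = 3 each). The log2 fold change was -1.17 ± 0.32 (SE), a 2.25-fold lower level in split blastocysts, with an adjusted p of 0.0334 in edgeR. This call rested on the full set of embryos: it was lost in 7 of 18 alternatives. Leaving out split pair 1, 2 or 3 gave -1.12, -1.30 and -1.10 with edgeR adjusted p of 0.147, 0.0577 and 0.155, and leaving out control blastocyst 1 or 2 gave -0.88 and -1.28 with edgeR adjusted p of 0.261 and 0.0517. In morulae the averages were 36.5 ± 7.70 CPM in split (n = 3) and 95.1 ± 29.9 CPM in control embryos (n = 5), a log2 difference of -1.38 ± 0.30 (SE). The 2 split effects differed by 0.21 ± 0.42 (SE). Along control development the log2 fold changes were -0.39 ± 0.26 in morulae against 8-cell embryos (edgeR adjusted p = 0.273) and -0.03 ± 0.28 in blastocysts against morulae (edgeR adjusted p = 0.984).

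Ppp2r2a, which encodes the widely expressed B55α, had 164 to 238 CPM in 8-cell embryos, 159 to 296 CPM in split morulae, 113 to 225 CPM in control morulae, 70.7 to 130 CPM in split blastocysts and 77.9 to 156 CPM in control blastocysts. It fell in split blastocysts against split morulae, to 91.9 ± 20.8 CPM against 209 ± 44.6 CPM (SD, n = 3 each). The log2 fold change was -1.18 ± 0.29 (SE), with an adjusted p of 0.0191 in edgeR and no overlap. Without split morula pair 3, split blastocyst pair 1 or split blastocyst pair 3, it was -1.02, -1.08 and -1.10, with edgeR adjusted p of 0.0907, 0.113 and 0.115. Control blastocysts against control morulae gave -0.62 ± 0.26 (edgeR adjusted p = 0.138). Split embryos of either stage overlapped their controls for this gene. Ppp2r2d took 5.90% to 21.2% of the summed TPM of Ppp2r2a and Ppp2r2d in split morulae, against 23.7% to 48.6% in control morulae. In split blastocysts it took 23.8% to 35.6%, against 32.2% to 61.1% in control blastocysts.

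Among the listed B56 genes Ppp2r5c, encoding B56γ, had the steepest course. It was at 338, 421, 247, 554 and 256 CPM in control morulae, against 32.7, 39.0, 45.9 and 24.5 CPM in 8-cell embryos. It rose 10.8-fold in morulae, a log2 fold change of 3.43 ± 0.30 (SE) with an adjusted p of 4.58e-08 in edgeR, and passed in all 21 alternatives run. In control blastocysts it was at 211, 211 and 162 CPM, below every control morula, and it fell, with a log2 fold change of -0.99 ± 0.30 (edgeR adjusted p = 0.0348). This fall was not held by other settings: 14 of 20 alternatives lost it. The log2 value was -0.46 on the log2(TPM + 1) scale (limma adjusted p = 0.286), a scale on which the median of all genes was 0.37 in this comparison. Leaving out control morula 1, 2 or 4 gave -1.01, -0.92 and -0.79 with edgeR adjusted p of 0.0515, 0.072 and 0.10, and leaving out control blastocyst 1, 2 or 3 gave -1.05, -1.06 and -0.86 with edgeR adjusted p of 0.0902, 0.0781 and 0.166.

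Split embryos had Ppp2r5c at levels that overlapped their controls. Split morulae had 120, 249 and 398 CPM at the lowest, median and highest, and split blastocysts had 156, 188 and 316 CPM. The log2 difference was -0.46 ± 0.29 (SE) in split against control morulae, and the log2 fold change was 0.24 ± 0.32 in split against control blastocysts (edgeR adjusted p = 0.891).

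Ppp2r5a, encoding B56α, was scarce until the blastocyst. Control blastocysts had 144, 94.8 and 61.5 CPM, against 12.5, 12.3, 11.02, 3.78 and 12.3 CPM in control morulae, with no overlap. It rose 9.08-fold in control blastocysts, a log2 fold change of 3.18 ± 0.74 (SE) with an adjusted p of 0.00592 in edgeR, and passed in all 20 alternatives run, with values from 2.82 to 3.62. Split blastocysts had 33.2, 44.5 and 69.6 CPM at the lowest, median and highest, and all 6 lay above the 28.8 CPM of the highest split morula. That step had a log2 fold change of 1.88 ± 0.85 and missed the threshold (edgeR adjusted p = 0.221). Against control blastocysts the split ones gave -0.94 ± 0.82 (edgeR adjusted p = 0.728), with overlap. In 8-cell embryos the range was 0.121 to 17.2 CPM, from 4 to 485 counts. Of its 50-base stretches 11.1% also occur in transcripts of other genes, so some of its reads may be uncertain.

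Ppp2r5d, encoding B56δ, was sparse in control embryos before the blastocyst. Split morulae had 1.12, 15.9 and 31.8 CPM at the lowest, median and highest, against 0.524, 0.130, 8.14, 0.391 and 4.97 CPM in control morulae, where these came from 2 to 107 counts. These groups overlapped, with a log2 difference of 2.46 ± 1.00 (SE). Control blastocysts had 22.8, 28.1 and 18.03 CPM, above every control morula. That log2 fold change was 2.93 ± 1.01 and missed the threshold in edgeR (adjusted p = 0.0677), while 8 of 20 alternatives called it. One of the 8 left out control morula 3, the highest of its group, and gave 3.84 with an edgeR adjusted p of 0.0257. Split blastocysts had 4.02 to 34.3 CPM.

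Ppp2r5e, encoding B56ε, passed in no comparison. It ran over 26.7 to 68.9 CPM in 8-cell embryos, 3.95 to 69.5 CPM in split morulae, 10.8 to 39.6 CPM in control morulae, 4.22 to 24.5 CPM in split blastocysts and 18.3 to 51.2 CPM in control blastocysts, and every pair of groups next to each other in the order of means overlapped. Its log2 fold change in split against control blastocysts was -0.99 ± 0.58 (SE), with an adjusted p of 0.459 in edgeR.

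Ppp2ca and Ppp2r2d had like profiles over the embryos. Among 3638 genes whose mean log2 CPM reached 5, Ppp2r2d had the highest Pearson correlation with Ppp2ca over the 24 embryos, 0.91. It was followed by Pabpc1 at 0.88, a poly(A)-binding protein, Srsf2 at 0.88, a splicing factor, Rab2a at 0.88, a small GTPase, and Hnrnpab at 0.87, an RNA-binding protein. Within the family the lowest correlation with Ppp2ca was that of Ppp2r1a, -0.64. The embryos share stage and origin, and sisters share a zygote, so these values describe the profiles and carry no test.

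**Figure D4:**
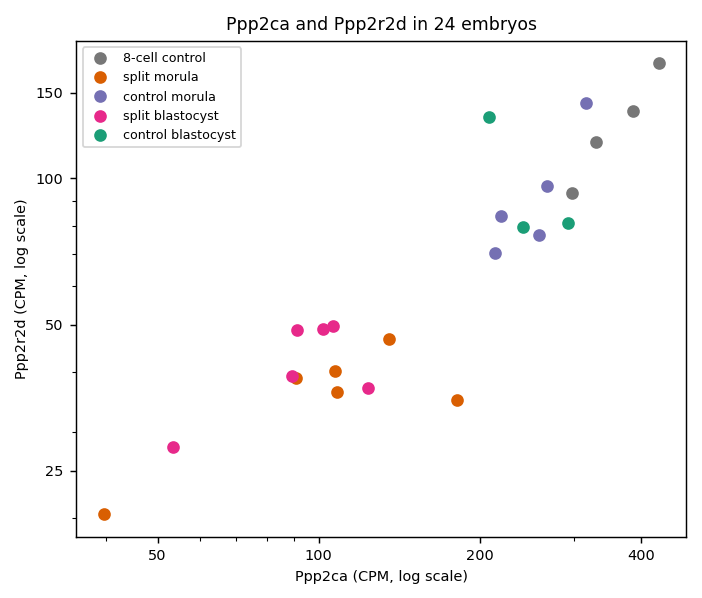
Ppp2ca (horizontal axis) against Ppp2r2d (vertical axis) in normalised read counts (CPM, both axes on a log scale), 1 point for each of 24 embryos, coloured by group. The 12 split embryos lie at no more than 181 CPM of Ppp2ca and 49.7 CPM of Ppp2r2d, and the 12 controls at no less than 209 and 70.3 CPM.

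Sister embryos grown from the same zygote were not uniformly alike in these genes. The absolute log2 difference between sisters had a median over the members of 0.44 in split blastocysts, against 0.43 between embryos of different pairs, and of 0.86 in split morulae, against 0.67. Sisters were closer than non-sisters for 5 of 10 members in split blastocysts and for 4 of 10 in split morulae. Among the members in split blastocysts, Ppp2r5c had the smallest median difference between sisters, 0.05, against 0.73 between non-sisters. In split morulae the smallest was that of Ppp2r2a, 0.04 between sisters, against 0.37 between non-sisters. Ppp2r5d in split morulae had the highest, with 2.50 between sisters, against 1.51 between non-sisters.

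The 9 other PP2A subunit genes included the striatins, which are B subunits of the STRIPAK complex. In control morulae against 8-cell embryos 3 of these 9 rose and 2 fell, where 14.3% of all genes rose and 10.7% fell. Strn rose by a log2 fold change of 2.75 and Strn3 fell, at -0.91, with edgeR adjusted p of 6.47e-05 and 0.00548, and Strn4 fell, at -1.71 (edgeR adjusted p = 0.0419). Ppp2r5b, a further B56 gene, also passed in the higher direction; it had no count in any of the 4 8-cell embryos and 0.00 to 5.36 CPM in control morulae, so no fold is given. In control blastocysts against control morulae Strn4 rose by 2.36 and Ppp2r3c, a B″ subunit gene, fell, at -2.24 (edgeR adjusted p = 0.0186 and 7.94e-05). Over all genes 3.12% rose and 7.46% fell at that step. In split against control blastocysts, where 3.42% of all genes rose and 1.32% fell, only Ppp2r3c passed, at 1.20 (edgeR adjusted p = 0.0472). It averaged 38.0 ± 10.6 CPM in split and 16.5 ± 1.39 CPM in control blastocysts (SD, n = 3 each). No gene of this list passed between split blastocysts and split morulae, where 4.17% of all genes did so.

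Of 18 measured genes listed as PP2A regulators or as cohesion genes, 2 rose and 4 fell in control morulae against 8-cell embryos. Over all genes 14.3% rose and 10.7% fell in that comparison. Set, an inhibitor of PP2A, rose by 1.35 and Fam122b by 3.27, while Arpp19 and Ensa, which inhibit PP2A-B55 once phosphorylated by Mastl, fell, at -0.65 and -1.08 (edgeR adjusted p from 1.17e-06 to 0.0111). In control blastocysts against control morulae 1 rose and 3 fell, where 3.12% of all genes rose and 7.46% fell. Ptpa, a PP2A activator, rose by 2.55, and Set, Tiprl and the cohesion gene Cdca5 fell, at -1.04, -1.24 and -1.59 (edgeR adjusted p from 1.58e-04 to 0.0149). In split against control blastocysts, where 3.42% of all genes rose and 1.32% fell, Tiprl was the 1 listed gene to rise and none fell. Tiprl, which binds PP2A-like catalytic subunits, rose by 0.91 with an edgeR adjusted p of 0.0183. Between split blastocysts and split morulae Set and Cip2a, another PP2A inhibitor, fell, at -0.90 and -1.12 (edgeR adjusted p = 0.00497 and 0.0197). Over all genes 1.22% rose and 2.95% fell there.

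Related phosphatases moved in mixed directions in split against control blastocysts. Over all genes 3.42% rose and 1.32% fell in this comparison. Of 13 PP4 and PP6 genes 1 rose and 1 fell: Ppp4c, the PP4 catalytic subunit, rose by 1.79 and Ppp4r3a, a PP4 regulatory subunit, fell, at -1.55 (edgeR adjusted p = 0.00253 and 6.07e-04). Ppp4c averaged 318 ± 63.6 CPM in split and 92.3 ± 40.6 CPM in control blastocysts (SD, n = 3 each). Of 11 PP1 genes 1 rose and 1 fell: the catalytic Ppp1ca rose by 1.22 and the catalytic Ppp1cb fell, at -1.10 (edgeR adjusted p = 0.00155 and 0.0492). Of 11 STRIPAK partners Slmap fell, at -1.07 with an edgeR adjusted p of 0.0334. Median log2 values in this comparison were -0.91 for the PP4 and PP6 genes, 0.23 for the PP1 genes and 0.16 for the STRIPAK partners. They were 0.10 for the PP2A regulators and cohesion genes and -0.52 for the other PP2A subunits, against 0.00 over all genes.

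In control development, 14.3% of all genes rose and 10.7% fell in morulae against 8-cell embryos. In blastocysts against morulae 3.12% rose and 7.46% fell. Of 13 PP4 and PP6 genes, 1 rose and 4 fell in morulae against 8-cell embryos. Among them were Ppp4r1, which rose by 2.72, and Ppp4r2, Ppp4r3b and Ankrd28, which fell, at -1.71, -1.04 and -1.85. In blastocysts against morulae Ppp6c, the PP6 catalytic subunit, fell, at -1.40, and no gene of that list rose. STRIPAK partners had 1 fall at the first step, Slmap at -0.85, and 3 at the second, Pdcd10 at -1.41, Mob4 at -1.30 and Sike1 at -0.97. PP1 genes had 3 rises and 2 falls at the first step, with Ppp1ca at 2.19, Ppp1r11 at 1.53, Ppp1cb at 1.15 and Ppp1r15b at -1.62, and 1 rise and 1 fall at the second, with Ppp1r15b at 1.27 and Ppp1ca at -0.90. All these calls had an edgeR adjusted p under 0.05. Between split blastocysts and split morulae Ppp1r11 was the 1 PP1 gene to rise, by 1.02 (edgeR adjusted p = 0.00893). No gene of the PP4 and PP6 or the STRIPAK list passed there, where 4.17% of all genes did so.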

How the data were processed

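RNA from 24 single embryos was measured by Smart-seq2. Reads were handled with FastQC, MultiQC, cutadapt, HISAT2, featureCounts and edgeR on GRCm39, per the submitters' processing notes; versions, gene annotation, strand setting and handling of multiply matching reads are not given in the sources used here. The authors deposited raw counts for 37229 genes, used as they stand, and a TPM table for 15625 genes. Overlapping and antisense genes therefore cannot be told apart, and Ppp2r5a, Ppp2r2a and Ppp2ca share 11.1%, 6.05% and 1.56% of their 50-base stretches with other GENCODE M21 transcripts.

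The 10 members, the other gene lists and the tests were chosen with earlier results of these data known. All members are named; from each other list up to 4 called genes per comparison with the smallest adjusted p are named, and the 5 genes most correlated with Ppp2ca.

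Counts of sisters were summed, giving 18 replicates in 5 groups. Genes were kept by filterByExpr (15875), scaled by TMM and tested in 1 edgeR 4.0.16 quasi-likelihood fit (R 4.3.3, two-sided, 13 residual degrees of freedom, Benjamini-Hochberg over all genes, called at an adjusted p under 0.05); SE is the log2 fold change over the root of F. CPM are TMM-scaled; mean ± SD is over replicates, and values per embryo are before summing. Alternatives used DESeq2 1.42.0, limma 3.58.1, other scalings, filters and pseudocounts, single sisters, left-out replicates and a replicate block. The procedure was run on simulated replicates, with changes placed only in split blastocysts and only in genes that were not sparse. That run does not cover changes in sparse genes, differences between sisters or the other comparisons. Intervals were not computed for single libraries, and 11.3 to 38.5 M counts per embryo set the precision, with amplified reads lacking molecular identifiers.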

Additional observations from a re-analysis of the deposited data

Results flagged for a closer look

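In 40 sets of 1 member in 1 group of 4 to 6 embryos, 2 embryos stood apart from the rest of their group by Dixon's criterion, and chance flags about 5% of such sets. Ppp2r2a was at 296 CPM in the second embryo of the third split morula pair, where the next embryo had 210 CPM. Ppp2r5a was at 3.78 CPM in control morula 4, where the next embryo had 11 CPM.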

How the results depend on the processing

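Of the members called, Ppp2r1a and Ppp2r5c in control morulae against 8-cell embryos, Ppp2r5a in control blastocysts against control morulae and Ppp2ca in split against control blastocysts passed in every alternative run, and no value of a named member changed sign among called results. Counts of members called moved elsewhere. For control blastocysts against control morulae, against 2 called, RLE size factors, single split embryos as samples and either blastomere alone left 1; DESeq2, no filter, the replicate block and limma on log2(TPM + 1), with or without a mean TPM of at least 5, gave 3; and leaving out replicates gave 1 to 3. For split against control blastocysts, against 2 called, the first blastomeres gave 1, DESeq2 and limma on log2(TPM + 1), log2(TPM + 0.1) or log2(TPM + 1) with a mean TPM of at least 5 gave 3, only the compared groups gave 4, and leaving out replicates gave 1 to 2. For split blastocysts against split morulae, against 1 called, DESeq2, limma on log2(TPM + 1) and the same with a mean TPM of at least 5 gave 2, each split embryo alone 3, limma-voom 4, and leaving out replicates 0 to 1. The number of all genes called moved too. In control blastocysts against control morulae it was 1182 with single split embryos as samples and 3520 with limma on log2(TPM + 1), against 1680. In split against control blastocysts it was 529 with the first blastomeres and 2037 with only the compared groups, against 752. In split blastocysts against split morulae it was 2903 with limma-voom, against 662. The cause was not tested. In split against control morulae, given with no test, the log2 difference ran over the alternatives from -1.54 to -0.93 for Ppp2ca and from -1.51 to -1.13 for Ppp2r2d, and the median of the members ran from -0.01, with the second blastomeres alone, to 0.45.

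With the replicate block 1 member, Ppp2ca, was called in split against control blastocysts. Deviations of same-numbered samples from their group means had correlations from -0.03 to 0.08. With so few replicates these values cannot show whether the numbers pair the samples.

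Over all genes, calls ran from 3079 to 4925 in morulae against 8-cell embryos, from 1083 to 3520 in control blastocysts against morulae, from 4 to 676 in split against control morulae, from 408 to 2037 in split against control blastocysts, from 292 to 2903 in split blastocysts against split morulae and from 72 to 874 for the difference of split effects, against 3960, 1680, 20, 752, 662 and 260. That difference holds the split morula values, so no call of its members is given. In edgeR 260 genes were called in it and 2272 had an unadjusted p under 0.05. With 3 replicates in the split and blastocyst groups, differences in the sparse genes Ppp2r5a and Ppp2r5d had the widest errors.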
